A study of Mus musculus with 27 samples.

Results

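Tumours of mice in which a broadly active cre driver switched on Hedgehog signalling were set against tumours started within the granule neuron lineage, to find what depends on the cell in which the signal was turned on. The comparison used 19 of the 27 Affymetrix arrays of mouse cerebellum, all of them tumours that carried SmoM2, an activated form of the Hedgehog signal transducer Smoothened. The broad side held 13 arrays, 6 of hGFAP-cre:SmoM2 and 7 of Olig2-tva-cre:SmoM2 tumours, and the granule side held 6, 3 of Math1-cre:SmoM2 and 3 of Tlx3-cre:SmoM2 tumours. The difference was the mean of the 2 broad group means minus the mean of the 2 granule group means, so each group had equal weight. The other 8 arrays, 2 of Ptc1+/- tumours and 6 of non-tumour cerebellum, entered the estimate of the spread but not the difference. They also entered the common scale, the floor, the filter on low values and the choice of probe set per gene. Their own values are given as description. Of the non-tumour arrays, 2 came from Mxi1-cre:SmoM2 mice, 2 from mice of the Olig2 driver, 1 from a mouse of the hGFAP driver and 1 from a Ptc1+/- mouse. The labels give no age, sex, time of tumour collection or strain background, and no array measures where or when a cre driver was active. The series describes its replicates as biological but names no animal for an array, so the p-values reflect only how far these samples spread.

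Granule neuron precursors arise from the rhombic lip, express Atoh1 (also named Math1) and divide on the surface of the young cerebellum in answer to Sonic hedgehog from Purkinje cells. Excess Hedgehog signalling in these cells leads to medulloblastoma, a tumour of the cerebellum. The human GFAP promoter is active in radial glia and other multipotent progenitors, and Olig2 is expressed in several progenitor pools of the brain, so both drivers reach cells outside the granule lineage as well as cells that later enter it.

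The arrays of the 2 sides differed in brightness and in RNA measures. Before scaling, trimmed mean signals ran from 140 to 206 on the granule arrays and from 42.6 to 205 on the broad arrays, and 6 broad arrays and 0 granule arrays lay under 85, as did 1 Ptc1+/- array. Arrays under 85 are called dim here. The log2 ratio of 3′ to 5′ control probe sets of Gapdh and Actb, which grows as RNA is degraded, ran from -0.07 to 0.46 on the granule side and from -0.15 to 1.88 on the broad side. The median SD of a gene was 0.26 in Math1, 0.26 in Tlx3, 0.51 in Olig2 and 0.45 in hGFAP tumours. The limma model takes a single SD per gene for all groups, and the granule groups varied less than the broad groups.

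Of 13527 genes tested, limma called 35 (0.259%) at a Benjamini-Hochberg adjusted p under 0.05, with 16 higher (0.118%) and 19 lower (0.14%) in the broad-driver tumours. Of these, 8 were at least 2-fold higher and 7 at least 2-fold lower. At an unadjusted p under 0.05 there were 2091 genes (15.5%), 1177 higher (8.7%) and 914 lower (6.76%). With weights by group, which give each group its own spread and leave its mean unchanged, limma called 420 genes. It called 520 with weights by array, so the count depends on how the unequal spread is treated. The threshold cut through a dense band, since 32 of the 35 genes had an adjusted p between 0.04 and 0.05. Without the arrays of trimmed mean under 85, 6 of the 35 genes kept their call: Itih3, Pltp, Gmps, Plpp3, Csgalnact1 and Otx1. Over all genes the median difference was 0.02 on the log2 scale, and the median 95% interval reached 0.45 to either side of a gene's difference. Within the sides, limma called 404 genes (2.99%) between hGFAP and Olig2 tumours, 259 higher (1.91%) and 145 lower (1.07%) in hGFAP. It called 0 genes (0%) between Tlx3 and Math1 tumours, with 3 arrays each. Those contrasts had 3127 (23.1%) and 576 (4.26%) genes at an unadjusted p under 0.05. The contrasts differ in their numbers of arrays. When the arrays of trimmed mean under 85 were left out, with 2 Olig2 and 5 hGFAP arrays remaining, limma called 0 genes between hGFAP and Olig2 tumours, with 1959 at an unadjusted p under 0.05.

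**Figure D1:**
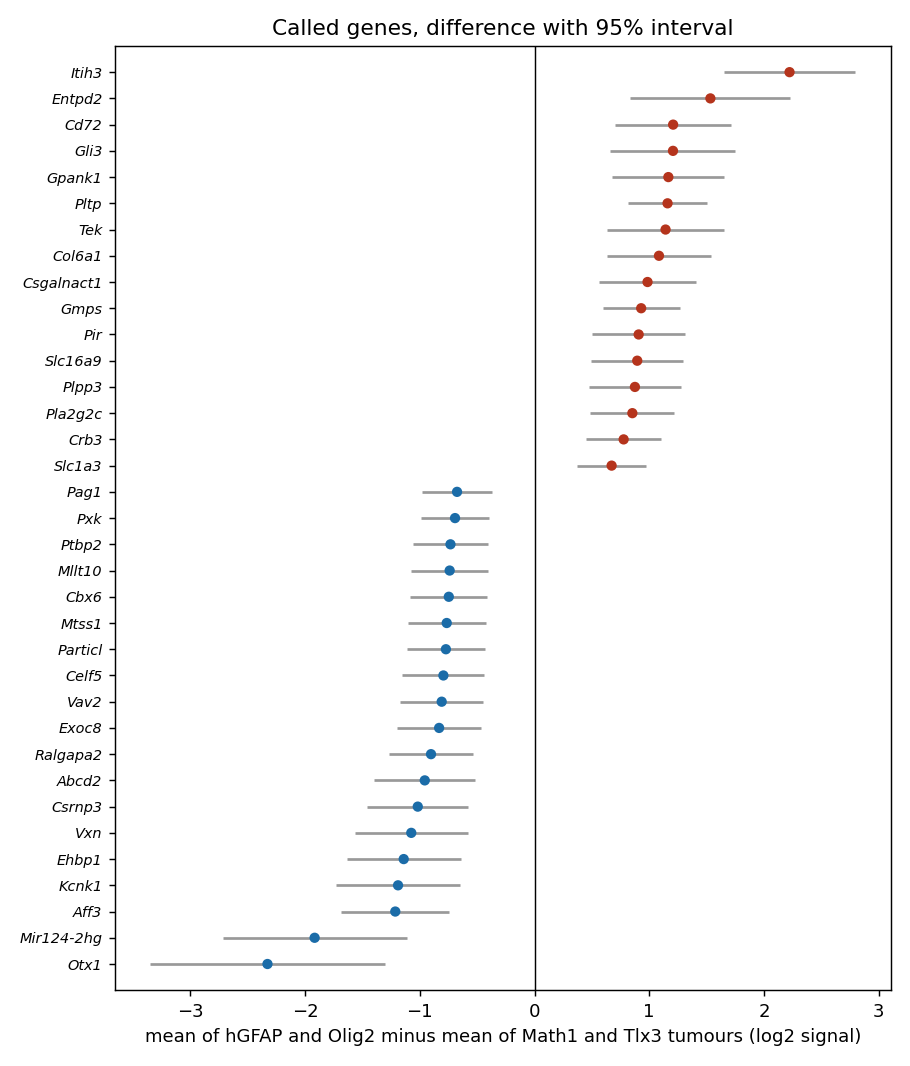
Difference of each of the 35 called genes between broad-driver (hGFAP and Olig2) and granule-driver (Math1 and Tlx3) tumours, in log2 signal, with its 95% interval from limma; red points are higher and blue points lower in the broad-driver tumours. The differences run from -2.33 for Otx1 to 2.22 for Itih3, and the smallest gain is that of Slc1a3, at 0.67.

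The separation of single arrays gives a stricter reading. In 8 genes (0.0591%) every broad array lay beyond every granule array, 5 higher (0.037%) and 3 lower (0.0222%). Only 3 of these were called, Pltp on the higher side and Csrnp3 and Ralgapa2 on the lower side. The other 5 were Gstm2 (0.85), Hacd4 (0.57), Ndufa10 (0.48), Iscu (0.39) and Nr2c2 (-0.67), named here after their values were seen, with limma adjusted p from 0.0717 to 0.165. Both broad group means lay beyond both granule group means in 34 of the 35 called genes, against 38.9% of all genes. The exception was Pag1, an adaptor protein of lipid rafts, whose mean was 8.04 in both hGFAP and Math1 tumours. The genes were called on a contrast of these same group means, so a high share follows from the call and adds no support.

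Itih3 and Pltp were the firmest differences. Itih3, whose product is a secreted heavy chain that binds hyaluronan in the extracellular matrix, had log2 signals of 5.91, 5.66 and 5.82 in Math1 and 6.51, 7.33 and 5.61 in Tlx3 tumours. In Olig2 tumours it ran from 7.21 to 8.74 with a median of 7.90, and in hGFAP tumours from 8.06 to 9.84 with a median of 8.69. Of the 13 broad arrays 12 lay above every granule array, the exception being the lowest Olig2 array, which lay under the highest Tlx3 array. The gain was 2.22 on the log2 scale, or 4.67-fold (SE 0.28, limma adjusted p = 0.000151). It was called in all 20 alternatives and in all 19 models that left out a single tumour array. Set side by side, Itih3 was 3.00 higher in hGFAP than in Math1 tumours, 2.31 higher in hGFAP than in Tlx3, 2.14 higher in Olig2 than in Math1 and 1.45 higher in Olig2 than in Tlx3. The last of these did not pass (limma adjusted p = 0.0935).

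Pltp, the phospholipid transfer protein of plasma and brain lipoproteins, was 7.86, 8.11 and 8.18 in Math1 and 7.67, 7.76 and 7.89 in Tlx3 tumours. It ran from 8.58 to 9.12 with a median of 8.70 in Olig2 and from 8.76 to 9.65 with a median of 9.47 in hGFAP tumours, so that the groups did not overlap across the sides. The gain was 1.16, or 2.23-fold (SE 0.17, limma adjusted p = 0.00103), and the other probe set of the gene gave 0.72. Pltp was called in 19 of 20 alternatives, all but the absence of scaling, and in all 19 models without a single array. The gain was 1.27 for Pltp (adjusted p = 0.000747) and 2.02 for Itih3 (adjusted p = 0.0131) without the arrays of trimmed mean under 85.

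Promoters are shown for Itih3 and Pltp, the genes called under nearly every setting, and for Csrnp3, a called gene on the lower side whose arrays did not overlap and whose window holds a searched motif. Each window runs from upstream of the annotated start to just past it, on the strand of the gene, from RefSeq on GRCm38.p6. They lie at chr14:30923538-30923837 (minus strand), chr2:164857659-164857958 (minus strand) and chr2:65845517-65845816 (plus strand, the first of 2 windows of the gene). Capitals mark CAGCTG, an E-box of the kind bound by basic helix-loop-helix factors, at bases 93 to 98 of the Csrnp3 window. The windows of Itih3 and Pltp hold neither CAGCTG nor GACCACCCA, the core sequence bound by Gli factors.
Itih3: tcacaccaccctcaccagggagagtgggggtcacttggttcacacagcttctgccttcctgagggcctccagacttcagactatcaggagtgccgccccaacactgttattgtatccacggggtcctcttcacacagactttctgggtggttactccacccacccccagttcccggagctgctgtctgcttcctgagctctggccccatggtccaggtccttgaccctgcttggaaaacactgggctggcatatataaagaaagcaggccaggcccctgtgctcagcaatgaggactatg
Pltp: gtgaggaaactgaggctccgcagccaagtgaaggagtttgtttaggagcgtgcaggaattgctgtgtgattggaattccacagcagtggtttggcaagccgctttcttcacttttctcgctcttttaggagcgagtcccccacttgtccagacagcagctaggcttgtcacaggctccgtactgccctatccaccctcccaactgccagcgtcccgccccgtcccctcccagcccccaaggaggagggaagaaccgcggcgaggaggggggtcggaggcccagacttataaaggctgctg
Csrnp3: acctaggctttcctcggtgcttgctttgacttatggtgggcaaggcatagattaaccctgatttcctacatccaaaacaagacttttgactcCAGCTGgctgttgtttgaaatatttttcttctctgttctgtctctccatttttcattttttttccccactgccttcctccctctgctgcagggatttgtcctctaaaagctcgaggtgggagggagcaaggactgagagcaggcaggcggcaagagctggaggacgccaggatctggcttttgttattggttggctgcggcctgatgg
Of the 35 called genes 27 had a promoter in the table. On either strand, GACCACCCA was in 0 of the 16 windows of genes called higher and 0 of the 19 of genes called lower, against 27 of 13979 windows of all tested genes (0.193%). CAGCTG was in 1 window on the higher side (Pla2g2c) and 3 on the lower side (Cbx6, Celf5 and Csrnp3), against 15.4% of all windows. The share on the lower side, 15.8%, was near that of all windows, and these matches describe letters in a window only.

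Gmps had the next smallest adjusted p on the higher side. Gmps, the enzyme that makes GMP in purine synthesis, was 8.70, 8.82 and 8.43 in Math1 and 7.89, 7.93 and 8.32 in Tlx3 tumours, and it ran from 8.72 to 9.82 in Olig2 and from 8.94 to 9.65 in hGFAP tumours. The gain was 0.93 (SE 0.16, limma adjusted p = 0.0198), with 12 of 13 broad arrays above every granule array. Its other 2 probe sets, both dimmer, gave -0.02 and -0.33, so the gain rests on 1 of 3 probe sets. Gmps was called in 15 of 20 alternatives and 15 of 19 models without a single array, and it stood at 1.19 (adjusted p = 0.000747) without the arrays of trimmed mean under 85. Plpp3, a phosphatase of signalling lipids, was 0.88 higher (adjusted p = 0.049), with a mean of 9.93 in hGFAP and 8.84 in Olig2 against 8.39 in Math1 and 8.63 in Tlx3 tumours. Its gain was 1.23 (adjusted p = 0.00475) without those arrays, but Plpp3 was called in only 8 of 20 alternatives and 2 of 19 models without a single array. Pla2g2c, a secreted phospholipase, was 0.85 higher and Entpd2, an ectoenzyme that breaks down extracellular ATP, 1.53 higher, with 1 Tlx3 array at the floor, so that the gain of Entpd2 is a lower bound. Neither passed without the dim arrays, at 0.79 (adjusted p = 0.187) for Pla2g2c and 1.70 (adjusted p = 0.128) for Entpd2.

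Gli3 was the single Hedgehog pathway component called. Gli3, a Gli factor that acts largely as a repressor when the pathway is off, was 4.50, 5.88 and 5.65 in Math1 and 5.88, 6.24 and 5.45 in Tlx3 tumours. It ran from 4.93 to 7.01 with a median of 5.96 in Olig2 tumours, overlapping the granule groups, and from 6.66 to 8.04 with a median of 7.60 in hGFAP tumours, above every granule array. The joint gain was 1.21 (SE 0.27, limma adjusted p = 0.0465), and all 3 probe sets had that sign. Gli3 stood at 1.32 (adjusted p = 0.0597) without the arrays of trimmed mean under 85. By group, Gli3 was 2.23 and 1.72 higher in hGFAP than in Math1 and Tlx3 tumours, and 0.70 and 0.19 higher in Olig2 tumours, which did not pass (adjusted p = 0.634 and 0.86). hGFAP and Olig2 tumours themselves differed by 1.53 (adjusted p = 0.00948), so the gain over the granule tumours was mainly that of the hGFAP tumours. Plpp3 and Pag1 also differed between hGFAP and Olig2 tumours, by 1.09 (adjusted p = 0.012) and 0.74 (adjusted p = 0.0215).

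Col6a1, a collagen chain of the pericellular matrix, was 6.14, 6.65 and 5.97 in Math1 and 5.89, 5.52 and 5.98 in Tlx3 tumours, and ran from 5.96 to 7.56 in Olig2 and from 6.53 to 7.94 in hGFAP tumours. It was 1.09 higher (SE 0.22, limma adjusted p = 0.0465), with 11 of 13 broad arrays above every granule array, and stood at 0.76 (adjusted p = 0.236) without the dim arrays. Its genomic neighbour Col6a2, coding for the partner chain, stood at 0.52 (adjusted p = 0.119). Csgalnact1, which starts chondroitin sulfate chains of the matrix, was 0.99 higher, and 1.15 (adjusted p = 0.0204) without the arrays of trimmed mean under 85. Tek, the angiopoietin receptor of endothelial cells, was 1.14 higher from low levels, a lower bound with 1 Math1 array at the floor, and stood at 1.15 (adjusted p = 0.137) without the dim arrays.

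Slc1a3, the glutamate transporter of radial glia, Bergmann glia and astrocytes, was 0.67 higher (SE 0.15, limma adjusted p = 0.0465). It was 10.95, 10.74 and 10.60 in Math1 and 10.46, 10.93 and 11.18 in Tlx3 tumours, with medians of 11.29 in Olig2 and 11.71 in hGFAP tumours, and 5 of its 6 probe sets had that sign. Slc1a3 stood at 0.70 (adjusted p = 0.0787) without the dim arrays, and without scaling the sign turned for Slc1a3 and Crb3. The remaining called genes were Cd72, a receptor of B cells, at 1.21 as a lower bound, Crb3, an apical polarity protein, at 0.78, Slc16a9, of the monocarboxylate transporter family, at 0.90, Pir, at 0.91, and Gpank1, at 1.17. The other probe set of Gpank1 gave -0.03. Cd72, Crb3, Pir and Gpank1 had 12 of 13 broad arrays above every granule array. Without the dim arrays neither these genes nor Slc16a9 passed, with differences from 0.71 for Crb3 to 1.12 for Cd72.

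**Figure D2:**
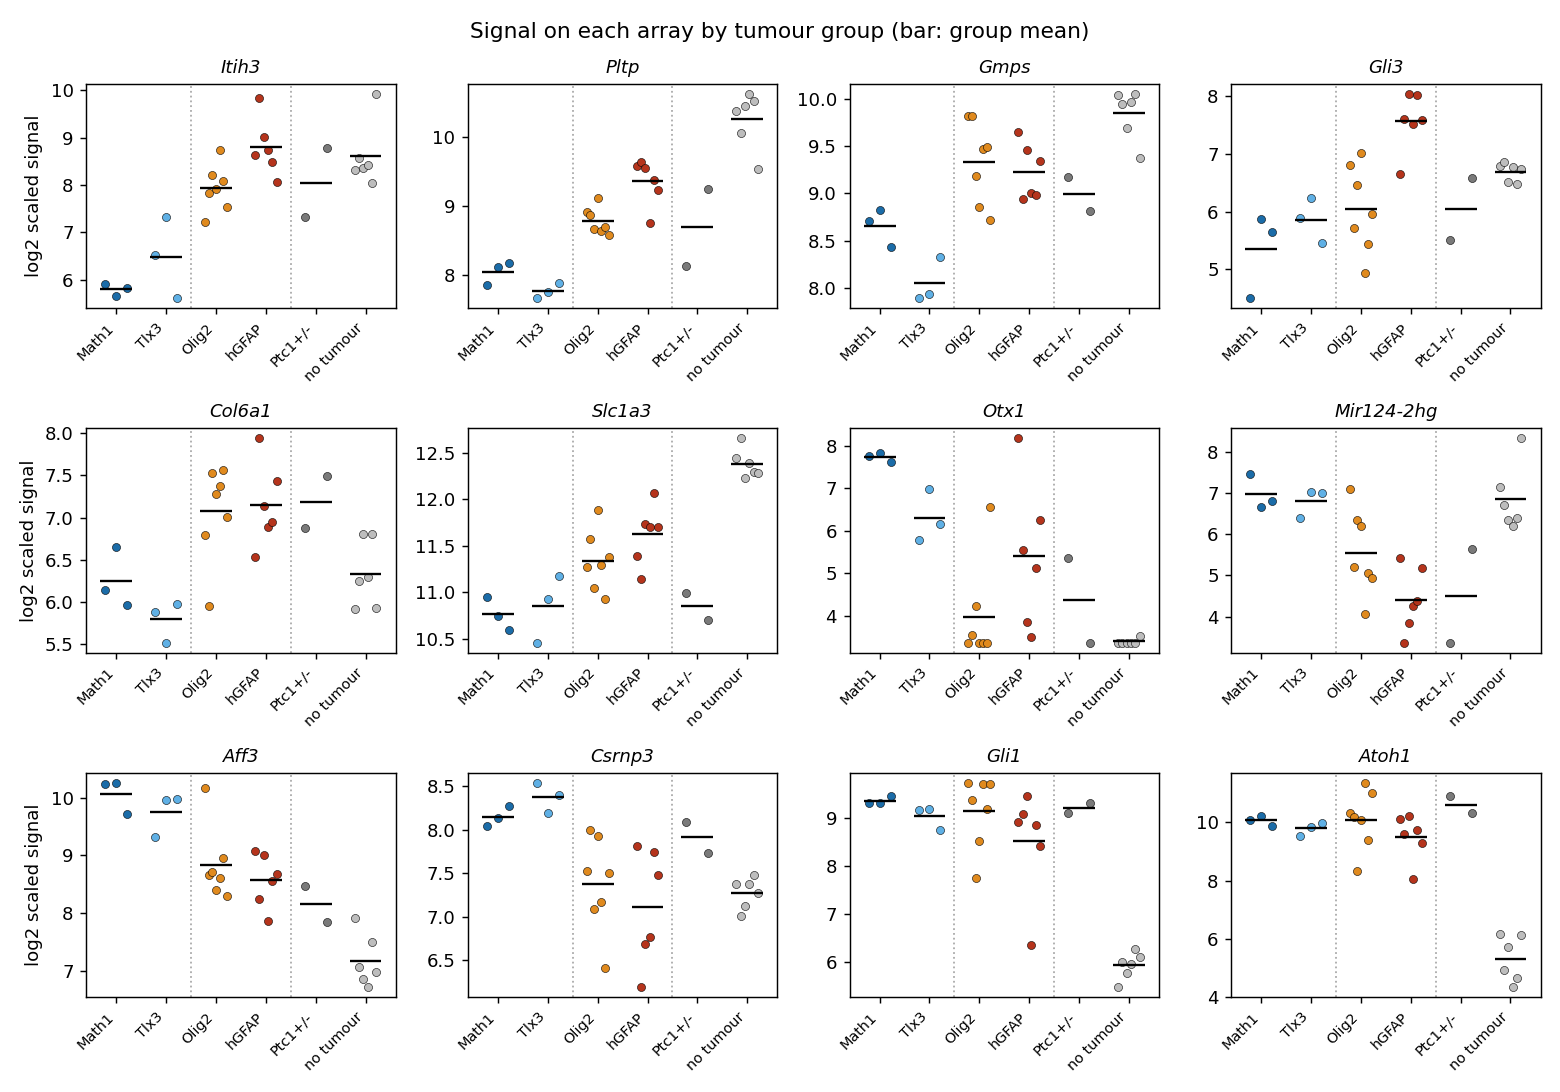
Log2 scaled signal of 12 genes on each array, by group, with the group mean as a bar; dotted lines part the granule-driver, broad-driver and remaining groups, and each panel has its own axis. Pltp does not overlap between the sides, the Olig2 tumours hold 4 arrays at the floor for Otx1, and Gli1 and Atoh1 overlap on both sides.

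Otx1 had the lowest difference of the genes called lower. Otx1 is a homeobox factor of the anterior brain and of granule precursors. It was 7.76, 7.82 and 7.63 in Math1 and 5.79, 6.97 and 6.15 in Tlx3 tumours. In Olig2 tumours 4 of 7 arrays were at the floor of 3.37, 2 were at 3.54 and 4.24, and the last was at 6.56, while hGFAP tumours had a median of 5.34 and reached 8.18. The hGFAP arrays thus ranged from far below the granule arrays to above them, and Otx1 fell by at least 2.33 (SE 0.50, limma adjusted p = 0.0465). Ehbp1, the next gene on the chromosome, whose product links endocytic vesicles to actin, was 1.14 lower as well (-1.14, adjusted p = 0.0465). The hGFAP array that was highest for Otx1 was also highest for Ehbp1, at 10.91 against 8.97 for the next hGFAP array. Of 70 tested neighbours of called genes 39 had the sign of the called gene. At an unadjusted p under 0.05 there were 17 (24.3%), against 15.5% of all genes. The 2 neighbours called were Otx1 and Ehbp1, each the neighbour of the other, where 0.259% of all genes were called.

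Mir124-2hg, a host transcript of miR-124, a microRNA abundant in neurons, was 7.47, 6.66 and 6.82 in Math1 and 6.39, 7.03 and 7.01 in Tlx3 tumours. It ran from 4.06 to 7.10 with a median of 5.21 in Olig2 and from 3.37, the floor, to 5.42 with a median of 4.31 in hGFAP tumours, and 12 of 13 broad arrays lay under every granule array. Mir124-2hg fell by at least 1.92 (SE 0.39, limma adjusted p = 0.0465), a value for the host transcript and not for the mature miRNA. Celf5, a neuronal RNA-binding protein, stood at -0.79 and Ptbp2, a splicing regulator of developing neurons, at -0.73, both called. Aff3, a nuclear factor of transcription elongation complexes, stood at -1.21 (adjusted p = 0.0409), and the Olig2 array that was highest, at 10.18, lay among the granule arrays (9.33 to 10.26). Without that array limma called 51 genes. Csrnp3, a nuclear factor, stood at -1.02, with 13 of 13 broad arrays under every granule array. Also called lower were Cbx6, a polycomb chromobox protein, at -0.75, Mllt10, a partner of a histone methyltransferase, at -0.74, with 2 of 4 probe sets of that sign, Particl, a long noncoding RNA, at -0.77, with 2 of 4, and Vxn, a gene of neuronal differentiation, at -1.07.

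Ralgapa2, a brake on Ral GTPases, was 9.41, 8.52 and 8.45 in Math1 and 8.08, 8.24 and 8.84 in Tlx3 tumours, and no broad array was over 8.02. Its difference was -0.90 (SE 0.18, limma adjusted p = 0.0465). Exoc8, a subunit of the exocyst that Ral regulates, stood at -0.83, Mtss1, which bends membranes and binds actin, at -0.77, Vav2 at -0.81, Pxk at -0.69 and Pag1 at -0.68. Kcnk1, a background potassium channel, stood at -1.19, with a mean of 10.47 in Tlx3 and 9.52 in Math1 tumours, and Abcd2, a peroxisomal fatty acid transporter, at -0.96. Vav2 and Pag1 each have another probe set, of opposite sign, and so do Mtss1 (0.08) and, on the higher side, Slc16a9 (-0.33). Of 18 called genes with 2 or more probe sets, 9 had all of them of the same sign. Other probe sets gave small differences of the same sign for Aff3 (-0.04), Cbx6 (-0.18) and Ptbp2 (-0.13). On the lower side only Otx1 kept its call without the dim arrays, at -2.40 (adjusted p = 0.0436), while Mir124-2hg stood at -1.61, Aff3 at -0.85, Csrnp3 at -0.79, Ralgapa2 at -0.85, Exoc8 at -0.51 and Celf5 at -0.48, with adjusted p from 0.0811 to 0.331. Ptbp2 and Mllt10 lay outside the rule for named genes and are given to complete the 35.

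The side on which the other groups lay is given as description, since the granule arrays that chose the genes enter it. The mean of tissue without tumour lay above the granule mean in 16 of the 16 genes called higher and below it in 15 of the 19 called lower. Pltp stood at 10.27 ± 0.41 (SD, n = 6) and Slc1a3 at 12.38 ± 0.16 (SD, n = 6) in tissue without tumour, above every tumour group. Itih3 stood at 8.61 ± 0.67 (SD, n = 6) there and at 7.33 and 8.77 in the 2 Ptc1+/- tumours, within the range of the broad-driver tumours. The Ptc1+/- mean lay on the broad side of the granule mean in 33 of the 35 genes. Both Ptc1+/- arrays, with trimmed means of 92.1 and 47.3 before scaling, lay under every granule array (140 to 206), as did most broad arrays. A part of brightness in this count was not tested, and no share over all genes was taken for the counts of this paragraph. The tumours are bulk tissue, where more cells of a type and more RNA per cell cannot be told apart.

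The genes of the design and the output of the Hedgehog pathway did not pass between the sides. Atoh1, which specifies granule neuron precursors, had a mean of 10.06 ± 0.17 (SD, n = 3) in Math1, 9.79 ± 0.23 (SD, n = 3) in Tlx3, 10.09 ± 1.01 (SD, n = 7) in Olig2 and 9.49 ± 0.79 (SD, n = 6) in hGFAP tumours. All lay far above the 5.32 ± 0.77 (SD, n = 6) of tissue without tumour. The difference between the sides was -0.14, with a 95% interval from -0.83 to 0.56 (limma adjusted p = 0.882), and it changed sign without the dim arrays. Gli1, a direct target of the pathway, stood at -0.37 (SE 0.31), Ptch1, the receptor gene and a target, at 0.19 (-0.21 to 0.58), and Smo at -0.20 (-0.52 to 0.12). Of the driver genes, Tlx3 stood at -0.41 (-1.14 to 0.32), Olig2 at -0.50 (-1.13 to 0.12) and Gfap at -0.01 (-1.04 to 1.02). Intervals as wide as those of Atoh1, Tlx3, Olig2 and Gfap do not show equal levels. Whether the probe sets of these genes can read RNA from the transgenes was not examined.

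Of 13 genes of Hedgehog output none was called, 3 were higher and 2 lower at an unadjusted p under 0.05, and the median was -0.02. Eya1, a transcriptional cofactor and phosphatase, stood highest at 0.71 and Mycn, the driver of precursor division, lowest at -0.77 (limma adjusted p = 0.266). Other probe sets of Mycn gave -0.23 and 0.83. Without the dim arrays Eya1 stood at 0.82 and Mycn at -0.49, and with the 3′ to 5′ ratio as covariate at 0.53 and -0.25. Ccnd1, a cyclin, stood at 0.38 and Sfrp1, a Wnt antagonist, at -0.56. Of 15 pathway components, besides Gli3, Evc2 of the primary cilium stood at 0.80 (adjusted p = 0.116), the repressor Sufu at -0.38 and the kinase subunit Prkaca at -0.44, with a list median of 0.08. In the granule precursor list, with 14 genes and a median of -0.18, 2 genes were higher and 2 lower at an unadjusted p under 0.05. There Meis2 stood at 1.56 (adjusted p = 0.153) and Pax6 at -0.75 (adjusted p = 0.183).

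Gene lists of stroma and vessels leaned to the broad-driver side, although 2 of their members passed the adjusted threshold. Lists are read against 8.7% of all genes higher and 6.76% lower at an unadjusted p under 0.05, with no test of the list. The highest and lowest members and called members were named by rule, and the other members given were chosen after their values were seen. Of 13 mural and mesenchymal genes 10 were higher and 0 lower at that level, with a median of 0.63. Col3a1, a fibrillar collagen, stood at 1.23 (limma adjusted p = 0.0929), Col1a2 at 0.76 (adjusted p = 0.103), Vtn at 0.80, the matrix proteoglycan Dcn at 0.73 and the pericyte receptor Pdgfrb at 0.64, while Kcnj8 was lowest, at -0.38. Of 19 collagen and laminin genes, 4 of which are also in the mural list, 10 were higher and 0 lower, with a median of 0.52. Lama2 stood at 1.08 and Lamb1 at 0.88 (both adjusted p = 0.0929), Col5a2 at 1.14 and Col12a1, the lowest, at -0.44. Of 10 endothelial genes 4 were higher and 0 lower, with a median of 0.38, among them Tek, which was called, Kdr at 0.80 and Cdh5 at 0.73. Slc2a1 was lowest, at -0.26.

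The summed signal of the mural list ran from 1929 to 2740 in Math1, 1703 to 1869 in Tlx3, 1848 to 4057 in Olig2 and 2422 to 4313 in hGFAP tumours. Without the arrays of trimmed mean under 85, 8 of the 13 mural genes, 9 of the 19 collagen and laminin genes and 4 of the 10 endothelial genes were higher at that level, with medians of 0.70, 0.38 and 0.46. With brightness as a covariate these counts were 5, 7 and 2. Of all genes, 10.5% passed that level in either direction without the dim arrays and 6.39% with brightness as a covariate. Without scaling, where the median of all genes was -0.76, the medians of the 3 lists turned to -0.11, -0.27 and -0.55. None of their genes was then higher at that level, against 0.0437% of all genes.

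Glial and stem cell lists leaned the same way, apart from single genes. Of 19 astrocyte and Bergmann glia genes 7 were higher and 1 lower at an unadjusted p under 0.05, with a median of 0.41. Clu, a secreted chaperone, stood at 0.88 (limma adjusted p = 0.0725), Gdf10, a Bergmann glia ligand, at 0.99, Slc6a11, a GABA transporter, at 0.97 and Sparcl1 at 0.60. Gja1, a gap junction protein, stood at 0.72, with means of 11.03 in hGFAP and 9.22 in Olig2 against 9.04 in Math1 and 9.77 in Tlx3 tumours. Aqp4, the water channel of astrocytes, stood at -0.54 and differed between hGFAP and Olig2 tumours by 1.17 (adjusted p = 0.0103), with the low mean, 9.61, in Olig2 tumours. Of 16 stem cell and radial glia genes 7 were higher and 0 lower, with a median of 0.21. Besides Slc1a3 these were Pax3 (0.88), Tnc (0.87), the filament genes Nes (0.68) and Vim (0.68), Sox2 (0.67, adjusted p = 0.144) and Prom1 (0.50), while the Notch target Hes5 was lowest, at -0.79. Without the arrays of trimmed mean under 85 the counts higher were again 7 of 19 and 7 of 16. With those arrays left out, 10.5% of all genes had an unadjusted p under 0.05 in either direction. Without scaling the medians of both lists were below 0, at -0.38 and -0.58, and above that of all genes.

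**Figure D3:**
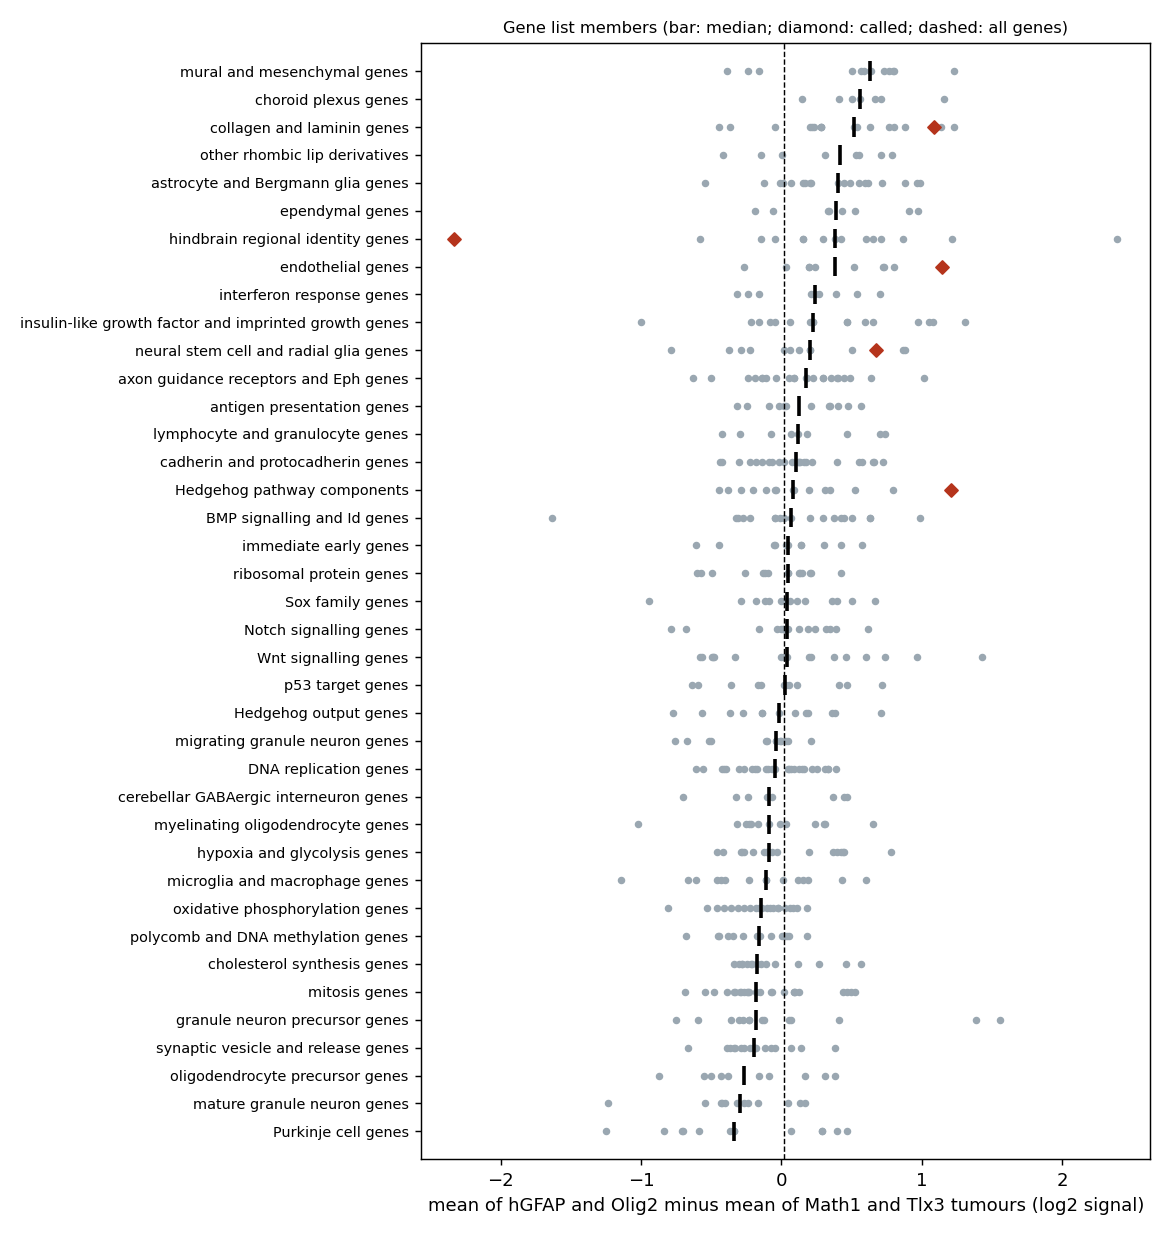
Difference of each tested member of the gene lists between broad-driver and granule-driver tumours in log2 signal, with lists sorted by their median (black bar), called members as red diamonds and the median of all genes, 0.02, as a dashed line. The mural and mesenchymal list has the highest median, 0.63, and the Purkinje cell list the lowest, -0.33, and most lists span both sides of the dashed line.

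The lists of granule neurons, Purkinje cells and the oligodendrocyte lineage had medians below that of all genes, with no member called, but the 2 broad groups lay apart in several of them. The median of the mature granule neuron list was 0.23 for hGFAP and -0.74 for Olig2 minus the granule groups, that of the myelin list 0.20 and -0.31, and that of the synaptic list 0.14 and -0.48. For the Purkinje cell list the median was -0.78 for Olig2 and close to 0 for hGFAP, so the lower values of these 4 lists were those of the Olig2 group means. The Olig2 arrays were split in the members looked at. Mbp was at 11.27 and 11.05 on Olig2 2 and 3 and from 7.06 to 9.07 on the other Olig2 arrays. Pcp2 was at 9.63 and 8.70 against 4.06 to 7.39, and Snap25 at 10.83 and 10.18 against 8.22 to 9.40. These group medians were not taken without the dim arrays. The difference between the groups was not tested for a list. Of 13 genes of migrating granule neurons 0 were higher and 4 lower at an unadjusted p under 0.05, with a median of -0.04. These were Dcx, which binds microtubules, at -0.76 (limma adjusted p = 0.194), Plxnb2 at -0.67, Sema6a at -0.51 and the netrin receptor Dcc at -0.50. Of 12 mature granule neuron genes only Grin2c was lower at that level (-1.23), and of 13 Purkinje cell genes Pcp2 (-1.25), Dner (-0.70) and Homer3 (-0.33) were, with medians of -0.29 and -0.33. Of 10 oligodendrocyte precursor genes Pdgfra stood at -0.87 (adjusted p = 0.079), with a list median of -0.27, and of 13 myelin genes Mbp stood at -1.02 and Opalin at 0.65. Among 8 markers of the remaining rhombic lip lineages 6 were higher by sign, with a median of 0.42. At that level 2 were higher and 0 lower, Pou4f1 (0.79) and Otx2. The list median was 0.63 for Olig2 and 0.14 for hGFAP minus the granule groups. With the 3′ to 5′ ratio as covariate 0 of the 8 were higher at that level, against 7.12% of all genes, with a median of 0.37. Pou4f1 stood at 0.42 without the dim arrays. Of 15 microglia and macrophage genes 0 were higher and 2 lower at that level, with a median of -0.11 and 6 higher by sign. Cd14 was highest at 0.60, Tyrobp stood at -0.66 and Trem2 was lowest at -1.14. The other probe set of Trem2 gave 0.08, and its Olig2 arrays split, with 3 at 6.70 to 6.99 and the others at or near the floor. Without the arrays of trimmed mean under 85, 1 of the 13 migrating granule neuron genes and 1 of the 13 Purkinje cell genes were lower at that level. Of all genes, 10.5% then passed it in either direction.

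Regional and growth factor lists held wide differences that varied between arrays. Hoxb3, a homeobox gene of the hindbrain behind the cerebellum, had the highest difference of all list members, 2.39, with a 95% interval from 0.71 to 4.08 (limma adjusted p = 0.171). The 6 granule arrays lay between 3.60 and 4.98, while Olig2 tumours ran from 3.37 to 11.08 and hGFAP tumours from 4.75 to 10.39, so that the mean was carried by some arrays of each broad group. Of 15 regional identity genes 5 were higher and 2 lower at an unadjusted p under 0.05, with a median of 0.38, and Otx1 was the member called, on the lower side. Irx5 stood at 0.66 (adjusted p = 0.0929), Otx2 at 0.71 and En2, of the midbrain and hindbrain boundary, at -0.58. Otx2 differed within the broad side, with means of 9.88 in Olig2 and 8.51 in hGFAP tumours.

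Of 17 insulin-like growth factor and imprinted growth genes 5 were higher and 1 lower at an unadjusted p under 0.05, with a median of 0.22. Igf2, a growth factor that Hedgehog-driven tumours use, ran from 7.36 to 8.32 on the granule arrays and lay above all of them on 11 of 13 broad arrays, and stood at 1.31 (limma adjusted p = 0.0929). Igfbp7 stood at 1.05 (adjusted p = 0.0856) while Igfbp4, another binding protein of these factors, had the lowest difference of the list (adjusted p = 0.0785), with means of 9.35 in Math1, 9.19 in Tlx3, 8.21 in Olig2 and 8.34 in hGFAP tumours. Grb10, an adaptor that dampens insulin signalling, stood at 1.08, with means of 8.06 in hGFAP and 6.18 in Olig2 tumours. Of 19 BMP and Id genes Bmp5, a ligand, was lowest at -1.63 (adjusted p = 0.0686), with 12 of 13 broad arrays under every granule array. Of 17 Wnt genes 4 were higher and 4 lower at that level, from Wif1, a secreted Wnt inhibitor, at 1.43 and Wnt5a at 0.97 to Fzd7 at -0.58. Wif1 was at the floor on most granule arrays and some broad arrays. The other probe set of Fzd7 gave 0.79.

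Of 25 mitosis genes 3 were higher and 1 lower at an unadjusted p under 0.05, with a median of -0.18. They ran from Ndc80 at 0.52 to Ube2c at -0.68. Of 27 DNA replication genes 0 were higher and 1 lower, with a median of -0.05. With the 3′ to 5′ ratio as covariate these medians were 0.01 and 0.07, Ndc80 stood at 0.51 and Ube2c at -0.01. Without the dim arrays Ndc80 stood at 0.23 and Ube2c at -0.13. In DNA replication the broad groups lay on either side of the granule groups. The medians were -0.40 for hGFAP and 0.25 for Olig2 minus the granule groups. Between hGFAP and Olig2, 6 of the 27 genes were called, against 2.99% of all genes. Over all genes that contrast called 404, then 151 with the 3′ to 5′ ratio as covariate and 0 without the dim arrays. The median log2 ratio was 0.89 in hGFAP and 0.13 in Olig2 tumours, and its part was not tested. Mki67, a marker of dividing cells, stood at 0.09 with an interval from -0.40 to 0.59. Choroid plexus genes had a median of 0.56 over 7 genes, but Ttr, the most abundant of them, ran from 3.37 to 9.51 in Math1, 10.91 to 12.56 in Tlx3, 3.65 to 13.70 in Olig2 and 3.37 to 13.29 in hGFAP tumours. Its difference was 1.16, with an interval from -2.76 to 5.07 (limma adjusted p = 0.803), and -1.96 without the arrays of trimmed mean under 85. With those arrays left out, 0 of the 7 genes were higher at that level, and 10.5% of all genes passed it in either direction. The signal of this tissue, which adjoins the cerebellum, varied widely within the Math1, Olig2 and hGFAP groups.

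The count of called genes changed with single arrays. Leaving out each tumour array in turn gave between 2 and 81 called genes, with 12 of the 19 models between 1 and 10. Without the arrays of trimmed mean under 85, which removes 7 of the 27 arrays and most of the Olig2 group, limma called 9 genes, and the part of brightness and of the smaller number of arrays cannot be told apart. With brightness as a covariate it called 6, and with the 19 tumour arrays of the comparison alone it called 2. Each of the 6 granule arrays, when left out, reduced the count to between 2 and 4, and leaving out the brightest hGFAP array raised it to 52 and leaving out either of the 2 brightest Olig2 arrays to 51 and 81. All 35 genes kept their sign in each of these models, which use largely the same arrays.

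**Figure D4:**
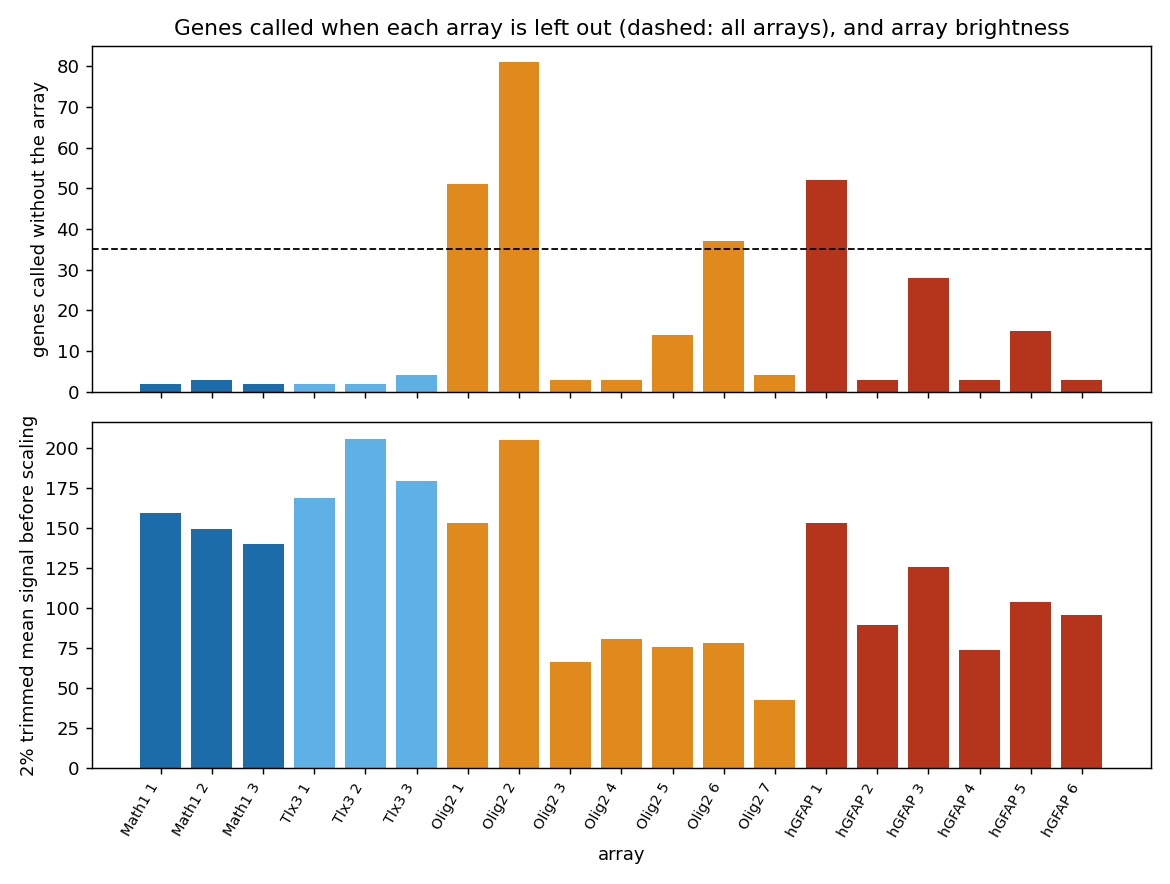
Number of genes called between the sides when each tumour array is left out (top; the dashed line marks the 35 called with all arrays) and the 2% trimmed mean signal of that array before scaling (bottom). The count falls to between 2 and 4 without any 1 granule array and is highest, 81, without the second Olig2 array, which has a trimmed mean of 205.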

How the data were processed

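RNA of 27 mouse cerebellar samples was read on Affymetrix arrays, 1 per sample. The deposited values are MAS5 signal intensity per probe set, per the submitters' processing notes; the MAS5 version and scaling target are not given in the sources used here. Of 45101 probe sets, 64 controls were left out, 34958 of 35890 listed have 1 gene, and 9211 are not listed. Each array was scaled to a common 2% trimmed mean of 123.61, floored at the 20th percentile (10.317) and taken to log2. Probe sets above the median (45.564) on at least 3 arrays were kept (30107), and the brightest per gene used (13527 genes). Values are log2 scaled intensity, and probe sets of different genes were not compared. The number of arrays limits the precision, and no 2 arrays were identical.

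limma 3.58.1 in R 4.3.3 was fitted with 6 group means over 27 arrays (lmFit, eBayes with trend and robust), and p-values were Benjamini-Hochberg adjusted over all genes. The model was run on simulated data with normal noise and a single SD per gene for all groups. That setting cannot show how the model treats the unequal spread of these groups. Named genes were the driver and pathway genes, the 15 highest and 15 lowest called genes with separated group means, up to 4 others a direction, and each list's called or else highest and lowest member; other list members were added after their values were seen. Genes called are those with adjusted p under 0.05. Members and lists were chosen with earlier results of these data known. Promoters are from RefSeq. Shared replicate numbers did not pair the samples: of 21 same-numbered pairs, 7 correlated over 0.1 (-0.34 to 0.23). Alternatives changed the scaling, floor, filter, probe set rule, arrays, weights and covariates.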

Additional observations from a re-analysis of the deposited data

Results flagged for a closer look

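In 14 of 228 pairs of a gene and a broad-driver group (6.14%), 1 array lay apart from the others by more than Dixon's critical value, a rate that chance gives in about 1 in 20 groups. On the log2 scale, with driver and array number, these were Gli1 at 6.36 on hGFAP 4 (next array 8.43), Otx1 at 6.56 on Olig2 7 (next array 4.24), Aff3 at 10.18 on Olig2 1 (next array 8.95), Ehbp1 at 10.91 on hGFAP 1 (next array 8.97), Meis2 at 8.56 on Olig2 4 (next array 5.48). Further such values were Pcp2 at 5.63 on hGFAP 3 (next array 7.71), Gad1 at 4.33 on hGFAP 3 (next array 7.07), Gdf10 at 5.3 on Olig2 4 (next array 6.84), Mia at 7.86 on Olig2 2 (next array 7.02), Bmp5 at 3.92 on hGFAP 2 (next array 6.32). The rest were Sox2 at 8.52 on hGFAP 5 (next array 8.12), Cdh7 at 3.53 on Olig2 3 (next array 4.84), Sqle at 7.35 on hGFAP 4 (next array 7.96) and Ring1 at 3.81 on Olig2 4 (next array 6.39). The fourth Olig2 array held 3 of the 14.

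In 6 of 114 named genes limma's test of hGFAP against Olig2 tumours passed, against 2.99% of all genes. In these 6 the 2 broad groups differed from the granule groups by unequal amounts. hGFAP minus Olig2 was 1.53 for Gli3 (adjusted p = 0.00948), 1.09 for Plpp3 (0.012), 0.74 for Pag1 (0.0215), 1.17 for Aqp4 (0.0103), 0.91 for Ptprz1 (0.0378) and -1.86 for Epha3 (0.0111). Without the arrays of trimmed mean under 85, limma called 0 genes between these groups (1959 at an unadjusted p under 0.05).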

How the results depend on the processing

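The main count of 35 genes was 5 with quantile normalization, 8 with median scaling (2 higher, 6 lower, median of all genes -0.144), 4 with the floor at the 10th percentile, 4 without a filter and 2 on the 19 SmoM2 arrays. It was 8 with plain eBayes, 520 with array weights and 420 with weights by group, 10 with the 3′ to 5′ ratio and 6 with brightness as covariate. It was 4 without arrays of high 3′ to 5′ ratio, 9 without those of trimmed mean under 85 and, chosen after seeing the data, 9 without either kind and 7 without those of trimmed mean under 120. Without scaling it was 6958 (3 higher, 6955 lower), with a median of -0.758. The replicate block gave 3 genes, 2 of them among the 35, and 2 between hGFAP and Olig2, although the numbers do not pair the samples and 2 of 19 arrays correlated best with their own number. The 404 genes between hGFAP and Olig2 became 3 without scaling, 106 on the 19 arrays, 55 with weights by group, 151 with the ratio as covariate, 1768 without arrays of high ratio, 0 without the dim arrays or either kind and 1 without those under 120. Tlx3 against Math1 gave 101 with array weights and 6 with weights by group. Leaving out 1 array gave 2 to 81 genes between the sides, 82 to 1395 between hGFAP and Olig2 and 0 between Tlx3 and Math1. Beside the arrays named above, leaving out Olig2 5 gave 14 and hGFAP 5 gave 15, and leaving out Olig2 3, 4 or 7 or hGFAP 2, 4 or 6 gave 3 or 4. The other alternatives kept the count within 1.5 times, and the cause was not tested.

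With quantile normalization, the sign turned for Gfap (0.013), Kl (-0.032). Without scaling, the sign turned for Ptch1 (-0.603), Crb3 (-0.013), Eya1 (-0.079), Cntn2 (-0.576), Slc17a7 (-0.62), Pou4f1 (-0.004), Lhx5 (-0.252), Tfap2b (-0.251), Slc1a3 (-0.118), Ptprz1 (-0.409), Opalin (-0.137), Cd14 (-0.187), Ms4a1 (-0.05), Cd74 (-0.219), Ifit3 (-0.033), Kl (-0.547), Ndc80 (-0.267), Fen1 (-0.4), Dll4 (-0.172), Sox2 (-0.121), Stx1a (-0.407), Fos (-0.213), Car9 (-0.012), Ndufa5 (-0.606), Rpl19 (-0.367), Pmvk (-0.22), Suz12 (-0.605), Kdm5d (-0.297). With the mean of probe sets, the sign turned for Gfap (0.006), Fzd7 (0.105), Suz12 (-0.011). With array weights, the sign turned for Atoh1 (0.014). With the replicate block, the sign turned for Gfap (0.265), Ifitm3 (0.2), Ttr (-0.009), Mia (0.085). With the 3′ to 5′ ratio as covariate, the sign turned for Atoh1 (0.171), Gfap (0.558), Gli1 (0.098), B2m (0.367), Rps9 (0.03), Suz12 (-0.109). With brightness as covariate, the sign turned for Atoh1 (0.082), Prkaca (0.07), Ttr (-1.215), Kl (-0.104), Mia (0.03). Without arrays of high 3′ to 5′ ratio, the sign turned for Atoh1 (0.252), Gfap (0.532), Gli1 (0.116), B2m (0.294), Suz12 (-0.108). Without arrays of trimmed mean under 85, the sign turned for Atoh1 (0.09), Gfap (0.108), Gli1 (0.056), B2m (0.018), Ttr (-1.958), Mia (0.027). Without arrays of either kind, the sign turned for Atoh1 (0.154), Gfap (0.345), Gli1 (0.122), B2m (0.187), Ttr (-1.25), Mia (0.125), Ndufa5 (-0.036), Suz12 (-0.049). Without arrays of trimmed mean under 120, the sign turned for Atoh1 (0.28), Gfap (0.211), Smo (0.073), Gli1 (0.177), Cd52 (0.063), B2m (0.3), Ifitm3 (0.157), Ttr (-2.31), Mia (0.213), Ube2c (0.152), Uhrf1 (0.05), Dusp1 (0.066), Suz12 (-0.122). With each array left out in turn, the values of these genes spanned 0: Atoh1 (-0.241 to 0.012), Cntn2 (-0.021 to 0.357), Gfap (-0.171 to 0.167), Kdm5d (-0.372 to 0.862), Kl (-0.081 to 0.353), Xist (-1.543 to 0.802).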
